A study of Mus musculus with 2 samples.

Results

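Dendritic cells were picked out of single-cell libraries of the upper (proximal) small intestine, taken from 2 APC mice of the genotype Villin-CreERT2 Apc fl/fl. A cell counted as dendritic when it held at least 2 of the 8 genes Siglech, Flt3, Fscn1, Ccr7, Cd209a, Clec9a, Xcr1 and Zbtb46, each with 1 or more unique molecular identifiers (UMIs, which count RNA molecules). It also had to hold at least 3 UMIs of H2-Ab1, fewer than 3 UMIs over the 3 C1q genes C1qa, C1qb and C1qc, fewer than 3 of the 6 monocyte genes Cd14, Il1b, Thbs1, Ccr2, Fn1 and Chil3, and no UMI of the lymphocyte genes Cd79a, Ms4a1, Cd3g, Cd3e and Cd3d. These conditions took 113 of the 14898 cells that passed the quality filters, 66 of 7941 in mouse 1 and 47 of 6957 in mouse 2.

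In these mice the Villin promoter drives a tamoxifen-dependent Cre recombinase in the intestinal epithelium, where both floxed copies of Apc are deleted, and dendritic cells are not the target of the deletion. Each mouse received 2 doses of 2 mg tamoxifen 24 h apart, and tissue was taken on day 4. The tissue was digested, live cells were sorted without selection for a cell type, and 10x 3′ chemistry was used for the libraries. Both libraries form 1 group with no control genotype, so dendritic cells can be set only against other cells of the same animals. The p-values rest on 2 mice per class, and the age of the mice was not given in the sources used here.

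Dendritic cells take up antigen, present its peptides to T cells on major histocompatibility complex (MHC) molecules, and in the gut carry antigen from the lamina propria to the mesenteric lymph nodes. Conventional type 1 dendritic cells (cDC1) depend on the transcription factors Irf8 and Batf3, carry Xcr1 and Clec9a, and are specialised in presenting antigen of other cells on MHC class I. Conventional type 2 dendritic cells (cDC2) carry Sirpa and, in part, Cd209a, and depend on Irf4. Mature dendritic cells switch on Ccr7, the receptor for migration to lymph nodes, and the actin-bundling protein Fscn1, whereas plasmacytoid dendritic cells carry Siglech and Bst2, depend on Tcf4 and are known for making type I interferon.

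The 113 cells were deeply sequenced in relation to the rest. Their median was 14071 UMIs in mouse 1 and 8010 in mouse 2, against 4381 and 2803 over all cells that passed the filters, and their summed UMIs were 957666 and 520821. Levels are given as CPM, the counts per 1000000 UMIs of these sums, which do not depend on transcript length in 3′ counting. The 3 classes used for comparison were gated on UMIs in the same way: 381 and 228 C1q macrophages (at least 3 UMIs over the C1q genes), 84 and 121 inflammatory monocytes (at least 3 of the 6 monocyte genes), and 338 and 57 B cells (Ms4a1 and Cd79a with at least 3 UMIs of H2-Ab1). Both libraries shared 16 of the barcodes that passed the filters, none of them a dendritic cell.

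The label was first checked against 5 markers, which the rule itself had used, so these values describe the choice and carry no test. Flt3, the receptor for the growth factor of dendritic cells, stood at 120.1 and 180.5 CPM in mouse 1 and mouse 2 and was seen in 56 of 66 and 39 of 47 cells. Zbtb46, a transcription factor of conventional dendritic cells, stood at 49.1 and 36.5 CPM and was seen in 27 and 14 cells. Flt3 lay at 3.84 and 2.09 CPM in C1q macrophages and 6.76 and 4.6 CPM in B cells, and was seen in 2 of 381 and 1 of 228 macrophages (median depths 2397 and 3433.5 UMIs). Both general markers of the lineage were therefore present. The subtype markers were unevenly spread. Cd209a stood at 148 and 152 CPM (34 and 18 cells), Clec9a at 54.3 and 119 CPM (19 and 24 cells) and Xcr1 at 55.3 and 67.2 CPM, with all Xcr1 UMIs in 5 and 4 cells. Of the other genes of the rule, H2-Ab1, a chain of an MHC class II molecule, stood at 5189.7 and 4268 CPM, Fscn1 at 39.7 and 40.3 CPM and Ccr7 at 21.9 and 17.3 CPM. Siglech, a surface lectin of plasmacytoid dendritic cells, reached 267 and 910.1 CPM and was held by 14 of 66 cells (21.2%, exact 95% binomial interval 12.1 to 33.0%) in mouse 1 and 25 of 47 cells (53.2%, 38.1 to 67.9%) in mouse 2.

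The 8 genes were unevenly spread over the cells. Since every cell had to hold at least 2 of them, and 56 of 113 held exactly 2, how often they occur together is shaped by the rule and is given as a description. Siglech was either absent or abundant: 14 and 24 cells held at least 5 UMIs, and 0 and 1 cells held 1 to 4. No cell held both Siglech and Zbtb46, although 39 cells held the first and 41 the second. Xcr1 and Cd209a were never seen in the same cell, whereas 8 of the 9 cells with Xcr1 also held Clec9a. Clec9a was seen in 29 of the 39 cells with Siglech, so Clec9a was not confined to cells without Siglech. Ccr7 and Fscn1 were found together in 3 cells.

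**Figure D1:**
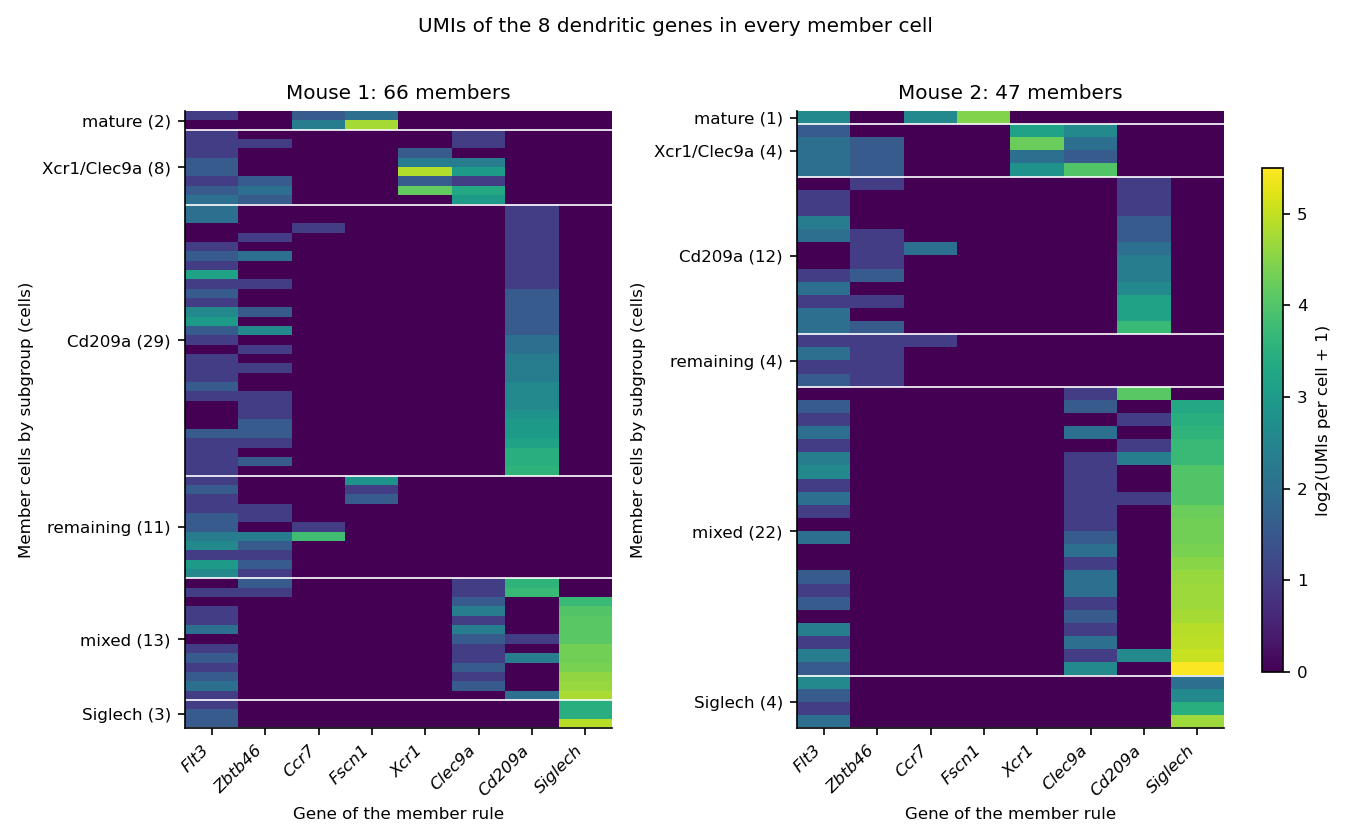
UMIs of the 8 dendritic genes (columns, log2 of UMIs per cell plus 1, by colour) in each of the 66 and 47 dendritic cells (rows, grouped by subgroup with the number of cells). Most of the mixed cells and all of the Siglech cells at the bottom of each panel hold Siglech. None of the cells with Siglech holds Zbtb46, and Xcr1 and Cd209a occupy different cells.

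Dendritic cells made up 0.831% (0.643 to 1.06%) of the cells that passed the filters in mouse 1 and 0.676% (0.497 to 0.897%) in mouse 2. The intervals overlap and cover counting error only. Because the rule counts UMIs, deep cells meet it more easily. Each cell was thinned to 2000 UMIs, and cells with fewer were left out. The shares were then 0.249% (17 of 6840 cells) and 0.229% (12 of 5239 cells), and 15 of 66 and 12 of 47 of the original cells still met the rule. Cells at the edge were common. Exactly 2 of the 8 genes were seen in 37 and 19 of the dendritic cells, and 18 and 13 further cells failed only for showing exactly 1. The median level of H2-Ab1 was 63 UMIs in the cells of mouse 1 just inside this limit and 20 in those just outside it. The lymphocyte condition alone removed 72 cells in mouse 1 and 21 in mouse 2, with median depths of 20163 and 16142 UMIs, and the H2-Ab1 condition alone removed 24 and 42. Asking for at least 3 of the 8 genes left 0.365% and 0.402%.

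**Figure D2:**
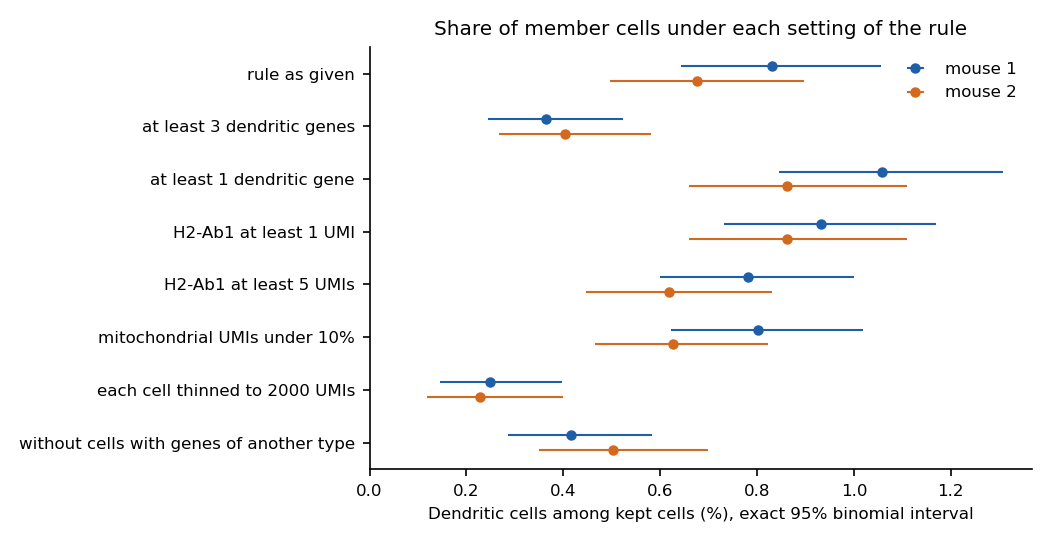
Share of dendritic cells among the cells counted under each setting of the rule (horizontal axis, %, with exact 95% binomial intervals) in mouse 1 and mouse 2. Most settings count all cells that passed the filters. Thinning leaves out cells under 2000 UMIs, and the mitochondrial setting admits cells with up to 10%. The settings move the share more than the mice differ, from 0.249% and 0.229% after thinning to 1.06% and 0.862% with a single dendritic gene required.

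Subgroups were formed from the same genes: mature cells with Ccr7 and Fscn1 (2 and 1 cells), cells with Xcr1 or Clec9a alone (8 and 4), cells with Cd209a alone (29 and 12), cells with Siglech alone (3 and 4), cells with more than 1 of these lineage markers (13 and 22) and the remaining Flt3 or Zbtb46 cells (11 and 4). None of the pairs planned for testing had 10 cells of both subgroups in each mouse, so levels are described with no test. Genes outside the rule varied with the division in both mice.

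The Xcr1 or Clec9a cells carried the genes known from cDC1. Irf8 stood at 1579 and 1693 CPM in them and at 15.9 and 6.36 CPM in the Cd209a cells, a gap far wider than the difference between mice. Naaa, a lysosomal amidase, stood at 917 and 928 against 161 and 280.0 CPM. Tlr3, the sensor of double-stranded RNA, stood at 187 and 249 against 3.98 and 0 CPM, and the interferon-inducible gene Ifi205 at 413 and 392 against 17.9 and 6.36 CPM. Cst3, a protease inhibitor, reached 28899 and 23068 CPM in the Xcr1 or Clec9a cells and 7765 and 11004 CPM in the Cd209a cells. These 12 cells held no UMI of the integrin Itgam or of Sirpa.

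The Cd209a cells showed the opposite pattern. Itgam stood at 247 and 325 CPM and Sirpa at 103 and 134 CPM. Mgl2, a galactose-binding lectin of cDC2, stood at 396 and 573 CPM against 28.3 and 19.1 CPM in the Xcr1 or Clec9a cells, and Irf4 at 49.7 and 89.1 against 5.66 and 19.1 CPM. Both subgroups carried Itgae, the integrin chain that binds epithelial cadherin, at 447 and 622 CPM in Xcr1 or Clec9a cells and 471 and 242 CPM in Cd209a cells. Il1b, a gene of the rule, differed between the mice, with 1048 and 356 CPM in the Cd209a cells.

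Mature cells were too few for a comparison of mice. Their Fscn1 UMIs were 29 and 21, and their Ccl17 UMIs, for a chemokine that attracts T cells, were 100 and 24 of 526 and 252 in all dendritic cells. Ccl22, which binds the same receptor, was carried largely by these cells: 74 and 4 UMIs of 109 and 4. Per UMI, Ccl17 stood at 15279 and 1538 CPM in the mature cells and 376 and 1273 CPM in the far more numerous Cd209a cells, and the Siglech cells held 0 and 0 UMIs. Il12b, a subunit of interleukin-12, was not seen in any of the 113 cells, which at this depth allows up to 3.13 and 5.76 CPM.

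Siglech cells were described as 1 set of 14 and 25 cells, whatever their other markers. This set was formed after the values were seen, and its levels carry no test. Several genes known from plasmacytoid dendritic cells stood higher in them than in the other dendritic cells of both mice. Tcf4, the transcription factor that maintains this lineage, stood at 1213 and 1489 CPM against 79.8 and 85 CPM in cells without Siglech. Bst2, a surface protein induced by interferon, stood at 3402 and 3193 against 168 and 187 CPM. Ly6d stood at 3269.7 and 2758 against 10.6 and 5.67 CPM, and the gut-homing chemokine receptor Ccr9 at 1914 and 1644 against 37.6 and 17 CPM. Tlr7, the sensor of single-stranded RNA, stood at 123 and 125 against 1.17 and 0 CPM. Cox6a2, a subunit of cytochrome c oxidase encoded in mm10 on chromosome 7 (128205435 to 128206387, minus strand), stood at 1355 and 1209 against 7.04 and 0 CPM. Irf8 was high here too, at 3175 and 2389 CPM, so Irf8 marked both the Siglech and the Xcr1 or Clec9a cells and was low in the Cd209a cells.

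In the Siglech cells H2-Aa and Ciita of the class II pathway stood lower and H2-K1 of the class I pathway higher, although every cell had to hold H2-Ab1. H2-Aa, a class II chain, stood at 2578 and 2901 CPM against 5798 and 5428 CPM without Siglech, and its transactivator Ciita at 28.4 and 47.7 against 309.8 and 365 CPM. H2-K1, a class I heavy chain, stood at 2284 and 2240.0 against 606 and 581 CPM. The split was not tested for these 3 genes, and the share of all genes that part the sets in both mice is not given here. Cst3 was 1355 and 1323 against 11857 and 13681 CPM, and Id2, a repressor needed by conventional dendritic cells, 19 and 35.7 against 534 and 538 CPM. The Siglech cells also carried Cd8b1, the beta chain of CD8, at 654 and 637 CPM against 0 and 0 CPM, Il7r, the interleukin-7 receptor, at 616 and 447 against 57.5 and 39.7 CPM, and Ighm, the heavy chain of IgM, at 682 and 864 against 98.6 and 87.8 CPM. The T-cell receptor genes Trac, Trbc1 and Trbc2 were at 2.09 and 0, 0 and 1.92 and 4.18 and 0 CPM in all dendritic cells of mouse 1 and mouse 2, so T-cell receptor transcripts were at or near 0 beside Cd8b1, in cells chosen to lack CD3 transcripts.

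**Figure D3:**
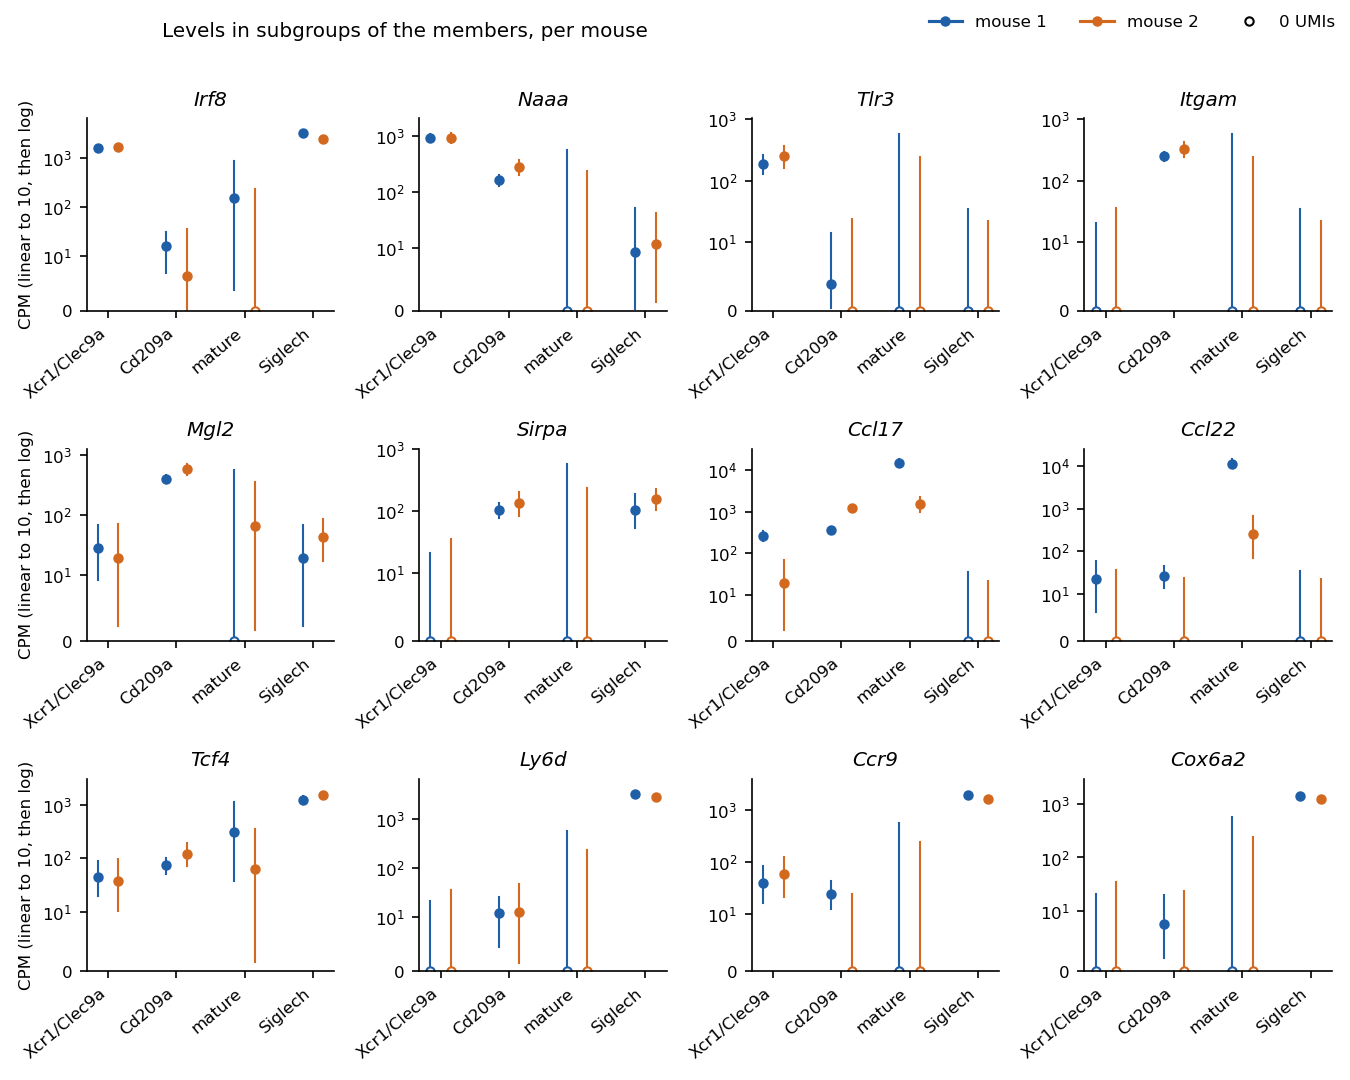
Levels (CPM, linear to 10 and logarithmic above) of 12 genes in 4 sets of the dendritic cells (the Siglech set here holds all 14 and 25 cells with Siglech), with 1 point per mouse, exact 95% Poisson intervals as bars and open circles for 0 UMIs. Irf8 is high in Xcr1 or Clec9a cells and Siglech cells, Itgam and Mgl2 in Cd209a cells, and Tcf4, Ly6d, Ccr9 and Cox6a2 in Siglech cells.

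To find what else set dendritic cells apart, their UMI sums were compared with those of the other 3 classes in edgeR's quasi-likelihood test over 8435 genes that no gate had used, with p-values adjusted by Benjamini-Hochberg. Genes that vary with the gate genes are bound to follow the gates. All 3 comparisons share the dendritic sums and are not independent, and the Siglech cells, which gave 105516 of 957666 UMIs in mouse 1 and 167855 of 520821 in mouse 2, are part of them.

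Against C1q macrophages, 365 genes were higher in dendritic cells (4.33% of those tested) and 445 lower (5.28%), with a median log2 fold change over all genes of 0.00. With the mouse as a block, the higher genes rose to 530 and the lower genes to 680. Of the 12 cDC1 genes tested, 6 were higher and 0 lower, with a median of 1.34. In this and the later comparisons, not all of these genes stood for cDC1 alone. Itgae was also high in the Cd209a cells, Id2 in the cells without Siglech as a whole, and Irf8 was highest in the Siglech cells. Id2 stood at 477 and 376 CPM in dendritic cells against 47.1 and 61.3 CPM (log2 fold change 2.92 ± 0.29 (s.e.), edgeR adjusted p = 0.00086). Itgae stood at 373 and 259 against 19.2 and 9.75 CPM (log2 fold change 4.35 ± 0.54 (s.e.), edgeR adjusted p = 0.00149), and Wdfy4, which is needed for cross-presentation, at 324 and 280.3 against 42.2 and 37.6 CPM (log2 fold change 2.85 ± 0.25 (s.e.), edgeR adjusted p = 0.000414). All 3 were above every macrophage value in both mice. Irf8 was higher as well, at 654 and 1112 against 303 and 227 CPM (log2 fold change 1.65 ± 0.31 (s.e.), edgeR adjusted p = 0.00994), whereas Batf3 stood at 170.2 and 121 against 146 and 92.6 CPM (log2 fold change 0.22 ± 0.31 (s.e.), edgeR adjusted p = 0.754).

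Among 15 plasmacytoid genes tested, 10 were higher and 1 lower than in macrophages, with a median of 3.06. Cox6a2 stood at 156 and 389.8 CPM and held no UMI in 609 macrophages, which made it at least 259-fold higher (edgeR adjusted p = 0.00153). Ccr9 stood at 244 and 541 against 6.03 and 0.696 CPM (log2 fold change 6.62 ± 0.93 (s.e.), edgeR adjusted p = 0.00249), Spib, a transcription factor, at 21.9 and 88.3 against 0.548 and 0 CPM (148-fold (95% counting interval 25.6 to 5921), edgeR adjusted p = 0.00545), and Tcf4 at 205 and 538 against 55.4 and 64.8 CPM (log2 fold change 2.53 ± 0.40 (s.e.), edgeR adjusted p = 0.0046). All 15 genes of the list stood higher in dendritic cells of mouse 2, the mouse with the larger share of Siglech cells. This sets 1 mouse against 1 mouse, and the share of all tested genes that stood higher in mouse 2 is not given here. The member that was lower was the lectin Clec4a1, at 2.09 and 3.84 against 28 and 45.3 CPM (log2 fold change -3.73 ± 0.57 (s.e.), edgeR adjusted p = 0.005).

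Of 21 genes known from mature dendritic cells, 6 were higher than in macrophages and 2 lower, with a median of 0.66. Ccl17 stood at 549 and 484 against 85 and 66.2 CPM (log2 fold change 2.70 ± 0.35 (s.e.), edgeR adjusted p = 0.00177). Il4i1, an amino acid oxidase, stood at 31.3 and 26.9 against 0.548 and 2.79 CPM (log2 fold change 4.08 ± 0.58 (s.e.), edgeR adjusted p = 0.00257), and Cd200, an inhibitory surface protein, at 15.7 and 23 against 2.74 and 0.696 CPM (log2 fold change 3.21 ± 0.61 (s.e.), edgeR adjusted p = 0.01). Ccl22 stood at 114 and 7.68 against 13.7 and 9.75 CPM and did not pass the test (adjusted p = 0.106, edgeR). Of 4 genes tested for retinoic acid and TGF-beta, Aldh1a2, an enzyme that makes retinoic acid, was higher, at 29.2 and 13.4 against 3.29 and 5.57 CPM (log2 fold change 2.27 ± 0.58 (s.e.), edgeR adjusted p = 0.0393). This call was lost under DESeq2. Tgfb1 (199 and 242 against 429 and 511 CPM) and the integrin Itgav (11.5 and 21.1 against 66.9 and 77.3 CPM) were lower, with log2 fold changes of -1.16 and -2.28.

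For antigen presentation, dendritic cells and macrophages differed in a few members of the pathway. The rule demands H2-Ab1 of dendritic cells and not of macrophages, so a lean of class II genes towards dendritic cells is built in. Of 14 class II genes tested, 3 were higher and 2 lower, with a median of -0.10. The higher genes were H2-Oa, at 146 and 119 against 9.32 and 6.27 CPM (log2 fold change 3.99 ± 0.43 (s.e.), edgeR adjusted p = 0.00101), H2-Ob, at 57.4 and 53.8 against 3.29 and 4.18 CPM (log2 fold change 3.81 ± 0.48 (s.e.), edgeR adjusted p = 0.00153), and H2-DMb2, at 214 and 204 against 52.1 and 51.5 CPM (log2 fold change 1.94 ± 0.25 (s.e.), edgeR adjusted p = 0.00181). H2-Oa and H2-Ob encode the chains of H2-O, which modulates peptide loading by H2-M. The lower genes were the lysosomal proteases Lgmn, at 31.3 and 34.6 against 908 and 960.3 CPM (log2 fold change -4.89 ± 0.36 (s.e.), edgeR adjusted p = 0.000178), and Ctss, at 733 and 764 against 2839.9 and 2318 CPM (log2 fold change -1.86 ± 0.20 (s.e.), edgeR adjusted p = 0.00101). H2-Aa stood at 5443 and 4614 against 6533 and 4574 CPM (log2 fold change -0.22 ± 0.25 (s.e.), edgeR adjusted p = 0.697). In the class I list 1 of 15 genes was higher, the immunoproteasome subunit Psmb9 (404 and 501 against 242 and 214 CPM, log2 fold change 0.91 ± 0.20 (s.e.), edgeR adjusted p = 0.0214).

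Migration and growth factor receptors were divided. Of 14 chemokine receptors and integrins, 7 were higher than in macrophages and 2 lower, with a median of 1.01. Besides Ccr9 and Itgae, Itgb7, the partner chain of Itgae, stood at 73.1 and 106 against 9.32 and 13.9 CPM (log2 fold change 2.86 ± 0.48 (s.e.), edgeR adjusted p = 0.00554). Cx3cr1, the fractalkine receptor, was lower, at 13.6 and 21.1 against 274 and 353 CPM (log2 fold change -4.28 ± 0.31 (s.e.), edgeR adjusted p = 0.000174). Of 16 growth factor receptors and regulators, 5 were higher and 4 lower, with a median of 0.59. Bcl11a, a transcription factor, stood at 144 and 374 against 3.29 and 9.05 CPM (log2 fold change 5.32 ± 0.55 (s.e.), edgeR adjusted p = 0.000899), and Kit, the receptor for stem cell factor, at 45.9 and 49.9 against 1.64 and 0 CPM (51.4-fold (95% counting interval 16.9 to 255), edgeR adjusted p = 0.00581). Csf1r, the receptor on which macrophages depend, stood at 30.3 and 38.4 against 741 and 623 CPM (log2 fold change -4.40 ± 0.44 (s.e.), edgeR adjusted p = 0.00086).

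Genes of macrophages were lower in the dendritic cells: 12 of 14 markers tested fell and 0 rose, with a median of -5.20 (-4.83 with genes at 0 UMIs set to their bound). Apoe, a lipid carrier, stood at 30.3 and 34.6 against 10685 and 6161 CPM (log2 fold change -8.10 ± 0.41 (s.e.), edgeR adjusted p = 1.92e-05). Mertk, a receptor for dying cells, held no UMI in dendritic cells and was at least 34.6-fold lower. Chemokines were lower as well, with 7 of 16 lower and 1 (Ccl17) higher, and a median of -3.08. Ccl24 stood at 2.09 and 1.92 against 1273 and 1188 CPM (609-fold (95% counting interval 208 to 2954) lower, edgeR adjusted p = 0.00152). Ccl8 held no UMI in dendritic cells and stood at 80.6 and 71 CPM in macrophages, at least 37.6-fold apart. Of 18 pattern recognition receptors 2 were higher and 5 lower, and the higher ones were Tlr3 (36.5 and 55.7 against 8.22 and 9.75 CPM, log2 fold change 2.25 ± 0.51 (s.e.), edgeR adjusted p = 0.0229) and the lectin Clec12a (74.1 and 132 against 22.5 and 37.6 CPM, log2 fold change 1.69 ± 0.37 (s.e.), edgeR adjusted p = 0.0203).

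**Figure D4:**
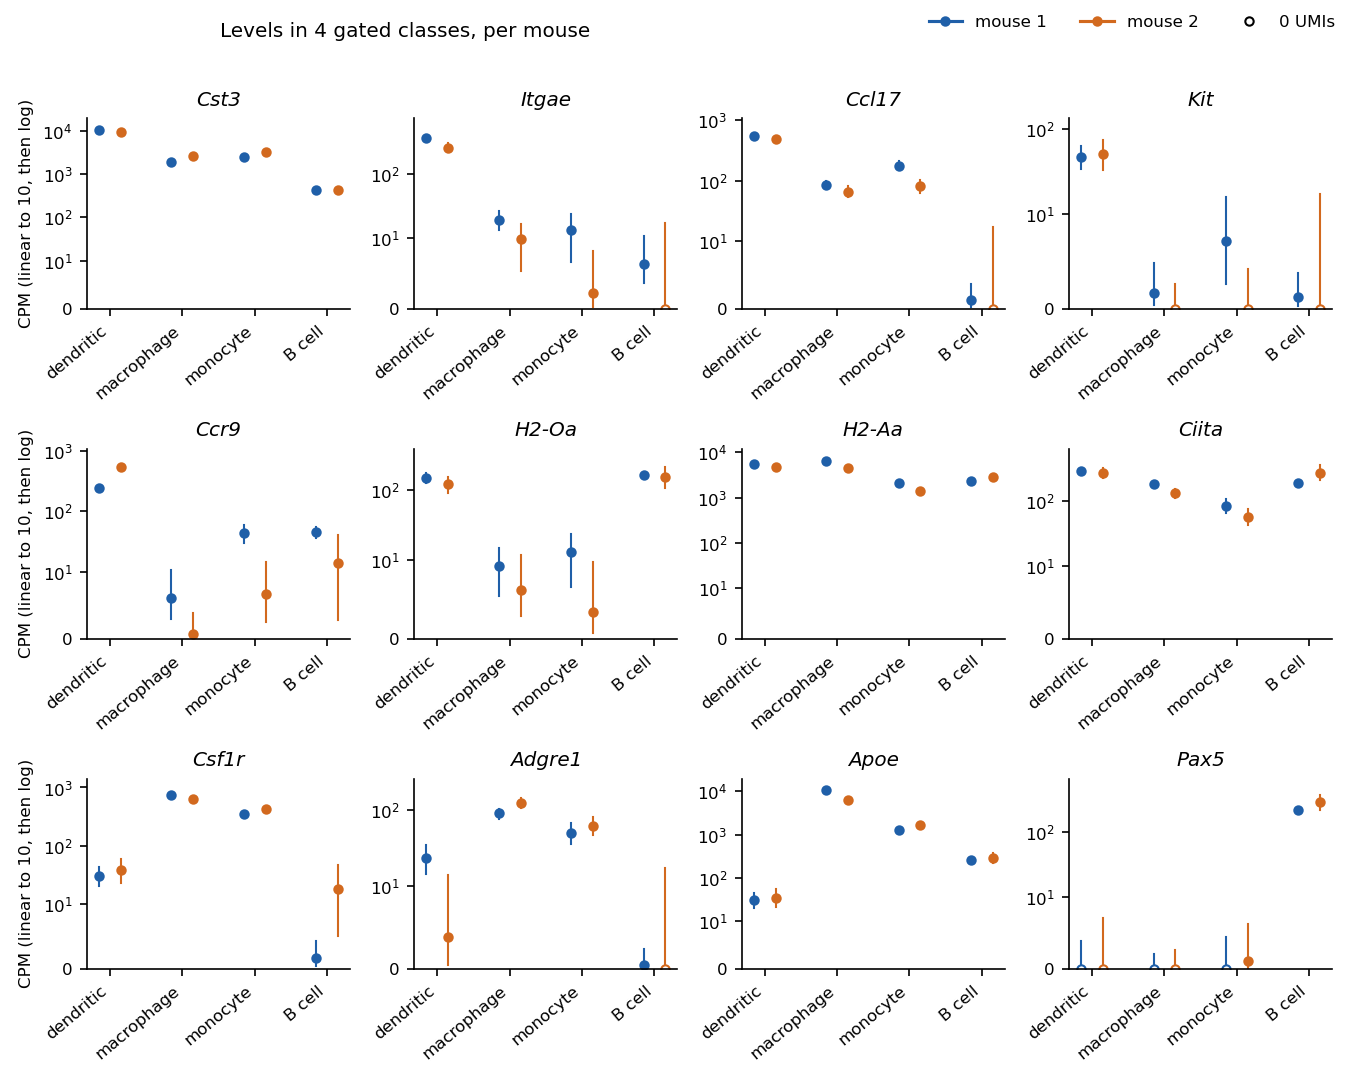
Levels (CPM, linear to 10 and logarithmic above) of 12 genes in dendritic cells, C1q macrophages, inflammatory monocytes and B cells, with 1 point per mouse, exact 95% Poisson intervals as bars and open circles for 0 UMIs. Cst3, Itgae, Ccl17 and Kit are highest in dendritic cells in both mice, H2-Oa is near the B cell level, and Csf1r, Adgre1 and Apoe are below their macrophage levels.

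Most of the 10 genes with the largest positive change from macrophages lay in the Siglech cells. Among the 10 genes with the largest positive change, Klk1b27 (a kallikrein, 50.1 and 117 CPM, at least 80.1-fold higher) and Mctp2 (23 and 99.8 CPM, at least 54.4-fold higher) held no UMI in macrophages. Reads of the near-identical kallikrein genes may have been split between them. Within the dendritic cells Klk1b27 stood at 445 and 363 CPM with Siglech and 1.17 and 0 CPM without, Mctp2 at 208 and 309.8 against 0 and 0 CPM, and Fcrla, an Fc receptor-like protein, at 436 and 483 against 2.35 and 0 CPM. The noncoding gene AC140186.1 stood at 199 and 250.2 against 21.1 and 8.5 CPM. Gp2 and Serpinb6b stood higher in the cells without Siglech. Gp2, known as a receptor for bacteria on M cells, stood at 0 and 0 CPM with Siglech and 134 and 119 CPM without, and at 1.1 and 0 CPM in macrophages (172-fold (95% counting interval 46.8 to 1433), edgeR adjusted p = 0.000899). Serpinb6b, a protease inhibitor, stood at 178 and 144 CPM in dendritic cells against 1.64 and 0 CPM (180.1-fold (95% counting interval 60.9 to 879), edgeR adjusted p = 0.000258), with 104 and 89.4 CPM in the Siglech cells and 187 and 170.0 CPM in the others. The 10 genes with the largest negative change held no UMI in dendritic cells: the scavenger receptor Msr1 was at least 163-fold lower, the metalloproteinases Mmp9 and Mmp13 at least 109.9-fold and 76.2-fold lower, and Ecm1, Itgb5, Npl, Tmem37, Gpx3, Slc11a1 and C5ar1 between 40.5-fold and 96-fold lower at the least.

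Against inflammatory monocytes, 407 genes were higher in dendritic cells (4.83%) and 523 lower (6.2%), with a median over all genes of 0.01. With the mouse as a block, the higher genes rose to 614 and the lower genes to 783. For class II genes, the rule demands H2-Ab1 of dendritic cells and not of monocytes, so they were bound to lean towards dendritic cells. Of 14 class II genes 7 were higher and 2 lower, with a median of 1.52 (1.22 with genes at 0 UMIs at their bound). H2-Aa stood at 5443 and 4614 against 2051 and 1427 CPM (log2 fold change 1.51 ± 0.26 (s.e.), edgeR adjusted p = 0.00698), and Ciita at 279 and 263 against 82.6 and 56.1 CPM (log2 fold change 1.94 ± 0.26 (s.e.), edgeR adjusted p = 0.00243). H2-Oa stood at 13.2 and 3.37 CPM and H2-Ob at 4.79 and 0 CPM in monocytes (log2 fold change 4.49 ± 0.58 (s.e.), edgeR adjusted p = 0.00215, for H2-Ob). Lgmn and Ctss were lower again, with log2 fold changes of -2.46 and -1.41.

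Of the cDC1 genes 7 of 12 were higher than in monocytes and 0 lower (median 1.57). Itgae stood at 13.2 and 2.24 CPM in monocytes (log2 fold change 5.34 ± 0.62 (s.e.), edgeR adjusted p = 0.00144), Tlr3 at 1.2 and 6.73 CPM (log2 fold change 3.40 ± 0.62 (s.e.), edgeR adjusted p = 0.00912, a call lost without the deepest cells, those above the 95th percentile of UMIs) and Irf8 at 221 and 181 CPM (log2 fold change 2.09 ± 0.32 (s.e.), edgeR adjusted p = 0.00431). Of the plasmacytoid genes 5 of 15 were higher and 1 lower, with a median of 2.03. The blocked fit called 10 higher, among them Ly6d (369.6 and 893 against 148 and 37 CPM, log2 fold change 2.89, adjusted p = 0.0113 in the blocked edgeR fit). Siglech itself was not absent from the monocyte class, at 41.9 and 15.7 CPM. Mature genes counted 6 of 21 higher and 0 lower (median 0.65), among them Apol7c, an apolipoprotein, at 145 and 179 against 3.59 and 2.24 CPM (log2 fold change 5.70 ± 0.63 (s.e.), edgeR adjusted p = 0.00123). Ccl17 stood at 178 and 80.8 CPM in monocytes (log2 fold change 1.98 ± 0.34 (s.e.), edgeR adjusted p = 0.00729).

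Cell cycle genes were higher in dendritic cells than in monocytes in 9 of 17 cases and lower in 0, with a median of 3.52 (3.03 at the bounds), and in 14 with the mouse as a block. Stmn1, a microtubule regulator, stood at 151 and 127 against 2.39 and 2.24 CPM (log2 fold change 5.81 ± 0.44 (s.e.), edgeR adjusted p = 0.000472). Mki67, a marker of dividing cells, stood at 60.6 and 46.1 against 7.18 and 1.12 CPM (log2 fold change 3.67 ± 0.78 (s.e.), edgeR adjusted p = 0.0174), and Ube2c, a ubiquitin enzyme of mitosis, held no UMI in monocytes (at least 30.0-fold higher). Against macrophages 0 of 17 passed in either direction in edgeR or DESeq2 (1 with an unadjusted p under 0.05 in edgeR), and 1 was lower with the mouse as a block, with Mki67 at 48.2 and 58.5 CPM there. Within the dendritic cells the levels lay in those without Siglech, whose 18 cell cycle genes summed to 1630.0 and 1527 CPM against 133 and 155 CPM in Siglech cells. A UMI of Mki67 or Top2a was seen in 21 of 52 and 7 of 22 cells without Siglech (median depths 15909 and 15365.5 UMIs), in 1 of 14 and 2 of 25 with it (7053.5 and 6306 UMIs), and in 9 of 84 and 2 of 121 monocytes (8986.5 and 7187 UMIs), so depth moved with the shares, and its part in them was not tested.

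Of 13 monocyte markers 9 were lower and 0 higher, with a median of -7.89 (-6.16 at the bounds). S100a9, an antimicrobial protein, held no UMI in dendritic cells against 735 and 75.2 CPM (at least 194-fold lower, edgeR adjusted p = 0.0188, lost under DESeq2), and the coagulation factor gene F10 was at least 71.6-fold lower. Of 16 chemokines 6 were lower and 1 (Ccl17) higher, with a median of -2.35. Ccl2 held no UMI in dendritic cells against 724 and 117 CPM (at least 202-fold lower, edgeR adjusted p = 0.00555). Pattern recognition receptors counted 3 of 18 higher and 5 lower (median -1.08). Higher were Tlr3, Tlr12 (29.2 and 55.7 against 1.2 and 0 CPM, 66.6-fold (95% counting interval 11.5 to 2675)) and Tlr11 (12.5 and 21.1 against 1.2 and 0 CPM, 26.9-fold (95% counting interval 4.36 to 1106), lost under DESeq2), and lower were, for example, Tlr2 (5.22 and 1.92 against 83.8 and 92 CPM, log2 fold change -4.45 ± 0.61 (s.e.), edgeR adjusted p = 0.00281) and Clec4e (1.04 and 0 against 197 and 174 CPM, adjusted p = 0.000809 in edgeR). Of 16 interferon-stimulated genes 6 were lower and 1 higher, with Ifi47 at 23 and 34.6 against 74.2 and 108 CPM (log2 fold change -1.74 ± 0.33 (s.e.), edgeR adjusted p = 0.0103) and Stat2 at 71 and 80.6 against 39.5 and 31.4 CPM (log2 fold change 1.06 ± 0.27 (s.e.), edgeR adjusted p = 0.0342), a call lost under DESeq2 and when 3 dendritic genes were required. Of 12 immediate early genes 5 were lower and 0 higher (median -1.47), and 8 were lower with the mouse as a block, with Nr4a1, a nuclear receptor induced by activation, at 100.2 and 34.6 against 468 and 668 CPM (log2 fold change -3.05 ± 0.48 (s.e.), edgeR adjusted p = 0.00514). In dendritic cells 10 of these 12 genes were lower in mouse 2 than in mouse 1, as for Atf3 with 234 and 25 CPM, whose call against monocytes was lost under DESeq2. The share of all tested genes that were lower in mouse 2 is not given here.

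Genes outside the lists also separated the classes. Ppp1r1a, an inhibitor of protein phosphatase, stood at 118 and 73 CPM and held no UMI in monocytes (at least 58.8-fold higher, edgeR adjusted p = 0.00144). Pclaf, a partner of the replication clamp, was at least 49.8-fold higher and Fndc5 at least 36.2-fold higher. Within the dendritic cells Ppp1r1a stood at 203 and 134 CPM in Cd209a cells and 11.3 and 0 CPM in Xcr1 or Clec9a cells. Xlr stood at 217 and 67.2 against 3.59 and 0 CPM (94.6-fold (95% counting interval 32 to 462), edgeR adjusted p = 0.00826). The largest negative changes, besides those named, were in Msr1, the complement gene C3, Cxcl10, Slc11a1, Tfec, C5ar1 and Klra2, at least 30.8-fold to 84.8-fold lower with no UMI in dendritic cells. For Cxcl10 the call (adjusted p = 0.0441 in edgeR) was lost when 3 of the 8 dendritic genes were required.

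Against B cells, another class here that presents antigen on class II, 1078 genes were higher in dendritic cells (12.8%) and 717 lower (8.5%), with a median over all genes of 0.02. Transcripts of plasma cells made up 27.6% and 9.32% of the B cell sums against 0.994% and 0.196% of the dendritic sums, and their part in these calls was not tested. Of the cDC1 genes 11 of 12 were higher and 0 lower (median 3.39), and of the cDC2 genes 6 of 14 higher and 2 lower (median 3.06). Mgl2 stood at 251 and 253 against 3.38 and 0 CPM (log2 fold change 5.89 ± 0.58 (s.e.), edgeR adjusted p = 0.000296), Sirpa at 75.2 and 106 against 5.07 and 4.6 CPM (log2 fold change 3.68 ± 0.37 (s.e.), edgeR adjusted p = 0.000315), and Itgax, the dendritic integrin CD11c, at 296 and 298 against 11.4 and 4.6 CPM (log2 fold change 4.40 ± 0.33 (s.e.), edgeR adjusted p = 0.000112). Of the growth factor receptors and regulators 9 of 16 were higher and 1 lower (median 1.84, 1.13 at the bounds). Csf2rb, the shared chain of the GM-CSF receptor, stood at 191 and 223 against 8.45 and 27.6 CPM (log2 fold change 3.72 ± 0.34 (s.e.), edgeR adjusted p = 0.000214).

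Class II genes did not lean one way against B cells. Of 14 tested 3 were higher and 3 lower, with a median of -0.24. H2-DMb1 stood at 423 and 389.8 against 84.5 and 92 CPM (log2 fold change 1.88 ± 0.25 (s.e.), edgeR adjusted p = 0.00119), whereas H2-Ob stood at 57.4 and 53.8 against 212 and 345 CPM (log2 fold change -2.54 ± 0.37 (s.e.), edgeR adjusted p = 0.00162) and H2-Eb2 at 2.09 and 0 against 99.3 and 96.6 CPM (73.3-fold (95% counting interval 20.1 to 608) lower). H2-Oa, which was higher than in macrophages and monocytes, stood at 146 and 119 against 162 and 152 CPM (log2 fold change -0.58 ± 0.35 (s.e.), edgeR adjusted p = 0.289). H2-Aa stood at 2273 and 2878 CPM in B cells and H2-Eb1 at 1576 and 1697 CPM, and both were called higher in dendritic cells with the mouse as a block (log2 fold change 0.69, adjusted p = 0.014 for H2-Aa). Of 15 class I genes 3 were higher and 0 lower, with Psmb9 at 135 and 156 CPM in B cells (log2 fold change 1.33 ± 0.21 (s.e.), edgeR adjusted p = 0.0027).

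Of the plasmacytoid genes 5 of 15 were higher than in B cells and 0 lower (median 1.35, 1.22 at the bounds), and 3 genes of this list stood at similar or higher levels in B cells: Ly6d at 1205 and 1743 CPM (log2 fold change -1.50 ± 0.74 (s.e.), edgeR adjusted p = 0.19), Spib at 82.4 and 138 CPM (log2 fold change -1.31 ± 0.62 (s.e.), edgeR adjusted p = 0.172) and Tcf4 at 206 and 234 CPM (log2 fold change 0.43 ± 0.38 (s.e.), edgeR adjusted p = 0.484). These 3 were picked after their values were seen. Of 11 co-stimulatory and inhibitory genes 3 were higher and 2 lower, and the call of 1 of the higher ones, Lgals9, was lost under most alternatives. Havcr2 (TIM-3, an inhibitory receptor) stood at 197 and 92.2 against 4.23 and 4.6 CPM (log2 fold change 4.64 ± 0.54 (s.e.), edgeR adjusted p = 0.000587) and Cd80 at 40.7 and 23 against 2.96 and 4.6 CPM (log2 fold change 2.92 ± 0.53 (s.e.), edgeR adjusted p = 0.00473), and Cd83 at 138 and 67.2 against 192 and 285 CPM (log2 fold change -1.42 ± 0.35 (s.e.), edgeR adjusted p = 0.0189). Mature genes counted 8 of 21 higher and 4 lower (median 0.72). The largest positive changes included Adam23 (at least 41.3-fold), Cd209d (at least 36.1-fold, lost under DESeq2, with reads that may be shared with other Cd209 genes), Ccl17 (1.27 and 0 CPM in B cells, 453-fold (95% counting interval 154 to 2202)), Tbc1d4, Mmp12, Ltc4s, Ifitm1 and Plet1. Mmp12 was lost without cells holding genes of another type, a setting that left out dendritic cells only where Epcam was among those genes. Plet1, a surface protein, stood at 609.8 and 403 against 6.34 and 0 CPM (log2 fold change 6.06 ± 0.82 (s.e.), edgeR adjusted p = 0.00119). The B cell regulators Ebf1 and Pax5 held no UMI in dendritic cells and were at least 467-fold and 109.9-fold lower. All 10 B cell markers tested were lower (median -8.05, -6.62 at the bounds), and Cd22, Fcer2a, Cr2, Ikzf3, S1pr1, Pgap1, Fcrl1 and Gpr174 were at 0 UMIs.

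Transcripts of other cell types were measured in the same sums. Epcam, an adhesion protein of epithelium, stood at 292 and 113 CPM in dendritic cells and was seen in 59.1% and 31.9% of them, against 201 and 110.0 CPM over all cells that passed the filters. The keratin Krt8 stood at 9.4 and 3.84 CPM in dendritic cells against 129 and 69.4 CPM over all cells. Within the dendritic cells Epcam was 457 and 159 CPM in Cd209a cells and 22.6 and 9.57 CPM in Xcr1 or Clec9a cells. Of 14 epithelial markers 0 passed against any class in edgeR (0, 0 and 1 with an unadjusted p under 0.05 against macrophages, monocytes and B cells) and 0 in DESeq2. With the mouse as a block, 680, 783 and 935 of all 8435 genes were lower in dendritic cells and 530, 614 and 1281 higher. Of the epithelial markers 5, 10 and 5 were lower in that fit and 1, 0 and 1 higher. The one higher than in macrophages was Epcam (log2 fold change 2.77, adjusted p = 0.0141 in the blocked edgeR fit). Other lists were summed in the same way: 13 T and innate lymphoid genes summed to 486 and 768 CPM (3787.5 and 12892 CPM over all cells), 10 plasma cell genes to 9942 and 1956.5 CPM (437930.0 and 250000.0 CPM over all cells), and 13 pancreatic genes to 2469.5 and 0 CPM, with the same order of mice as in the whole libraries for the last 2. Of the 6 T and innate lymphoid genes tested, 5 were higher than in macrophages and 0 lower. They were Cd8b1, Il7r, Cd7, Cd8a and Thy1, a surface protein that stood at 66.8 and 28.8 against 2.74 and 0 CPM (log2 fold change 4.87 ± 0.82 (s.e.), edgeR adjusted p = 0.00588) and lay in the cells without Siglech (75.1 and 39.7 against 0 and 5.96 CPM). The part of free RNA or of joined cells in these values was not tested.

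Ahcy, the methionine-cycle enzyme at the centre of the study, was barely seen in dendritic cells, with 5 and 1 UMIs (5.22 and 1.92 CPM) in 5 of 66 and 1 of 47 cells. Of 7 methionine cycle genes tested, 0 passed against macrophages, monocytes or B cells in edgeR (1, 0 and 1 with an unadjusted p under 0.05) and 0 in DESeq2, although 1 was called lower than in macrophages when no filter on low counts was used. Mat2a, which makes S-adenosylmethionine, stood at 78.3 and 127 CPM in dendritic cells and 94.8 and 88.4 CPM in macrophages.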

How the data were processed

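The deposited files hold UMI counts per gene and barcode for 9645 and 8800 barcodes, made by the authors with Cell Ranger 6.1.2 on mm10 per the labels. The annotation release is not given in the sources used here. Barcodes with over 100 genes, over 400 UMIs, under 5% mitochondrial and under 10% haemoglobin UMIs were kept. No doublet removal is named, and no caller was run. Counts were summed per mouse and class, with total counts per sum in the report, and tested with edgeR 4.0.16 in R 4.3.3 (TMM, filterByExpr, quasi-likelihood, two-sided, Benjamini-Hochberg, threshold 0.05), leaving out the 23 genes of the gates. DESeq2 1.42.0 was an alternative. Macrophages and monocytes also held no lymphocyte-gene UMI, monocytes and B cells fewer than 3 C1q UMIs, and B cells no Cd3 UMI. Poisson and binomial intervals (95%) and the floor for groups at 0 (3 counts over the group) cover counting error only.

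Named were the rule's genes, the 10 largest called changes per direction and comparison (at least 50 CPM in the higher class, same direction in both mice, without immunoglobulin, ribosomal, mitochondrial and unnamed genes), and for each gene list up to 4 called and 3 abundant members. Other genes were chosen after their values were seen. Members and lists were chosen with earlier results of these data known. Sums of 1 mouse come from the same animal, and their deviations from class means correlated at 0.325, 0.249 and 0.178 between dendritic cells and macrophages, monocytes and B cells, so the mouse pairs the sums. Tested on simulated data over 8455 genes, changes of 2 on the log2 scale were recovered in 68.9%, 66.9% and 64.0% of cases against macrophages, monocytes and B cells, and changes of 1 in 10.9%, 10.3% and 9.26%. The simulated sums came from a common profile with few changed genes and no pairing by mouse. Recovery in the real data may therefore differ. Alternatives were the mouse as a block, DESeq2, RLE scaling, no low-count filter, only the compared classes, other cell filters and leaving out either mouse.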

Additional observations from a re-analysis of the deposited data

Results flagged for a closer look

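Of the barcodes removed by the quality filters, 9 met every other condition for dendritic cells, 4 of 1704 in mouse 1 and 5 of 1843 in mouse 2. They lie outside the comparisons because of the filters alone. Their median depths were 12276 and 5929 UMIs, and their median mitochondrial shares were 5.34% and 5.68%, just above the 5% limit.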

How the results depend on the processing

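Without the filter on low counts, which lets more genes be tested, the genes higher and lower in dendritic cells rose to 564 and 787 against macrophages and 692 and 909 against monocytes. DESeq2 left 235 higher and 307 lower against macrophages, 268 and 357 against monocytes, and 755 and 384 against B cells. Its calls held 518 of 810, 599 of 930 and 1128 of 1795 of the edgeR calls. With the mouse as a block, 530 were higher and 680 lower against macrophages, 614 and 783 against monocytes, and 1281 and 935 against B cells. The pairing held 810 of 810, 930 of 930 and 1788 of 1795 of the unpaired calls. The share of dendritic cells moved to 0.365% and 0.402% with 3 dendritic genes required, to 0.249% and 0.229% after thinning to 2000 UMIs, in mouse 1 to 1.06% with 1 gene required, and in mouse 1 to 0.416% without cells holding genes of another type. That setting leaves out cells with at least 2 UMIs over Trac, Trbc1, Trbc2, Cd79b and Epcam, 33 of 66 and 12 of 47 dendritic cells, of which 31 and 11 held at least 2 Epcam UMIs. All 33 and 12 fell under 2 UMIs once Epcam was not counted, so among dendritic cells this setting depended on Epcam. Epcam stood higher in the Cd209a cells than in the Xcr1 or Clec9a cells. As a mean over cells, Xcr1 came to 30.0 CPM in place of 61.3 and Cd209a to 162 in place of 150.0 CPM. Against B cells, Cx3cr1 turned to -0.27 (adjusted p = 0.932) with 3 dendritic genes required, Mki67 to 0.42 (adjusted p = 0.661) without the deepest cells, and Atf3 to -0.28 without mouse 1 and 3.85 without mouse 2, values with no test. The cause was not tested for any of these. Of 3527 alternative tests of 398 pairs of a named gene and a comparison, 3262 kept their direction and side of the threshold, 162 passed it newly, 101 lost it and 2 reversed. Leaving out either mouse gives values with no test, and none of the 4 pairs of subgroups set out for testing had 10 cells of both in each mouse, so these were not tested. Depth limits low genes: 0 UMIs in the dendritic sums allow up to 3.13 and 5.76 CPM.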

Other observations

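Genes of monocytes were not uniformly low in dendritic cells. Of 13 monocyte markers 3 were higher and 3 lower than in macrophages, and the higher ones included Plac8 and Ifitm6. Plac8 stood at 2081 and 2446 CPM in dendritic cells against 1024 and 1002 CPM in macrophages (log2 fold change 1.09 ± 0.26 (s.e.), edgeR adjusted p = 0.0292), with 3137 and 4426 CPM in Siglech cells and 1950.4 and 1504 CPM in the others, and its call was lost when 3 dendritic genes were required. Ly6c2, another monocyte marker, stood at 1014 and 1186 CPM in Siglech cells and 11.7 and 17 CPM in the others. Ifitm6, a membrane protein, lay on the other side, at 0 and 0 CPM in Siglech cells and 250.0 and 261 CPM in the others. Of the cDC2 genes 2 of 14 were higher and 3 lower than in macrophages (median 0.16) and likewise than in monocytes (median -0.53). Ltb, a lymphotoxin chain, was higher than in macrophages at 37.6 and 32.6 against 1.64 and 0.696 CPM (log2 fold change 4.66 ± 0.42 (s.e.), edgeR adjusted p = 0.000546), and Sirpa was lower, at 75.2 and 106 against 196 and 249 CPM (log2 fold change -1.38 ± 0.26 (s.e.), edgeR adjusted p = 0.0091). Macrophage markers were lower than in monocytes in 10 of 14 cases and higher in 0, and against B cells 4 were higher and 2 lower.

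Over all genes tested, 4.33%, 4.83% and 12.8% were higher than in macrophages, monocytes and B cells, and 5.28%, 6.2% and 8.5% lower. The blocked fit called 530, 614 and 1281 of 8435 higher and 680, 783 and 935 lower. A list count near these shares is not particular to its list. Cytokine genes were sparse. Of 8 tested, 0 were higher and 1 lower than in macrophages (4 lower with the mouse as a block), 0 higher and 3 lower than in monocytes (1 and 4 with the block), and 1 higher and 0 lower than in B cells (3 higher with the block). Il18 stood at 12.5 and 13.4 CPM in dendritic cells against 37.1 and 32.5 CPM in monocytes (log2 fold change -1.45 ± 0.40 (s.e.), edgeR adjusted p = 0.048). This call was lost under DESeq2, with mitochondrial UMIs allowed up to 10%, without the deepest cells and with 3 dendritic genes required. Ebi3 stood at 50.1 and 40.3 against 8.03 and 4.6 CPM in B cells (log2 fold change 2.14 ± 0.55 (s.e.), edgeR adjusted p = 0.0226). Its call was lost without cells holding genes of another type and with 3 dendritic genes required. Interferon-stimulated genes counted 0 higher and 2 lower of 16 against macrophages and 5 higher and 0 lower against B cells, with Isg15, a ubiquitin-like protein, at 111 and 161 against 24.9 and 13.8 CPM (log2 fold change 2.16 ± 0.47 (s.e.), edgeR adjusted p = 0.0118). The calls of Isg15 and Oasl2 against B cells were also lost without cells holding genes of another type and with 3 dendritic genes required. Oas1a was lost there under DESeq2 and without cells holding genes of another type, and Stat2 under most alternatives. Both genes lower than in macrophages, Ifit2 and Oas1a, were lost under DESeq2. Immediate early genes counted 0 higher and 1 lower of 12 against macrophages (7 lower with the block) and 2 higher and 0 lower against B cells. Of the 6 mast cell and granulocyte genes tested, Kit was higher than in each of the 3 classes, and 4 were lower than in monocytes. Of 2 stromal and endothelial genes tested, Cdh5, a cadherin, was higher than in macrophages, at 12.5 and 30.7 against 0 and 1.39 CPM (30.9-fold (95% counting interval 7.78 to 267), edgeR adjusted p = 0.0214), and stood at 114 and 95.3 CPM in Siglech cells and 0 and 0 CPM in the others. Of 10 B cell markers 1 was higher and 2 lower than in macrophages and 1 higher and 0 lower than in monocytes, and the higher gene was Ighm, whose call against macrophages was lost with RLE scaling and with only the 2 compared classes. Plasma cell genes counted 0 in either direction of 10 against macrophages and monocytes in edgeR (0 and 2 with an unadjusted p under 0.05), 0 and 1 lower in DESeq2 and 2 and 2 lower with the mouse as a block, and 8 lower against B cells. Of 12 pancreatic genes 0 passed against any class in edgeR or DESeq2, and 8 were higher than in monocytes with the mouse as a block.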
